A study of Mus musculus with 6 samples.

Results

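Endothelial cells line the blood vessels of the skin, and basement membranes are the thin sheets of matrix that lie under them and under the epidermis. A basement membrane is built from a network of type IV collagen and a network of laminin, joined by nidogen and the heparan sulfate proteoglycan perlecan. Endothelial cells, mural cells, muscle, fat, nerve sheath and epidermis all lie on such sheets, so the genes that encode them do not mark a single cell type, whereas the endothelial genes described here are used as vessel markers. In a healing wound new vessels sprout under the control of vascular endothelial growth factor and Notch signals and lay down a new basement membrane as they mature.

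The 10 genes described here were chosen by symbol from the 48377 symbols of the deposited count table: 5 basement membrane genes (Col4a1, Col4a2, Hspg2, Lamc1 and Nid1) and 5 endothelial genes (Pecam1, Vwf, Eng, Cdh5 and Flt1). The samples were skin of Db/Db mice, a diabetic model whose leptin receptor does not work, from a study of wound healing under a topical BRAF inhibitor. Skin was given DMSO vehicle for 16 days in 3 libraries and vemurafenib (PLX4032), a BRAF kinase inhibitor labelled at 1 uM, for 16 days in the other 3. All 6 libraries share the Db/Db background, and no non-diabetic or untreated group was analysed here. The labels do not give age, the place of the skin relative to a wound, or whether each library is 1 animal, so p-values here speak only of the spread among the libraries, part of which may be technical. Values of a group are listed in the order of its libraries 1, 2 and 3.

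The libraries held few counts assigned to genes, 14189 to 78434 each, with the most in vemurafenib 1. Depth here means these assigned counts, and the number of reads sequenced was not examined. Levels are given as CPM, counts scaled to a library total of 1000000 after TMM adjustment. A gene with 0 counts in a library could still lie at up to 38.2 CPM in vemurafenib 1 and up to 211 CPM in vehicle 2, by counting error alone. Of all symbols, 477 were counted deeply enough to be tested. The libraries are stranded, the strand setting of the counting is not given in the sources used here, and Actb, Eef1a1 and Gapdh, abundant mRNAs of most tissues, held 17.5, 6.02 and 1.45 counts per kb of exon over all libraries. Type IV collagen held more, 31.9 counts per kb under Col4a1 and 31.7 under Col4a2. The 477 tested genes include antisense genes such as Tsix, Zeb2os and Kdm6bos, whereas Actb, Eef1a1 and Gapdh are not among them. Whether the counts under a name come from that gene's own strand was not tested. This limit holds for every value that follows, and for the shares and medians over the 477 tested genes.

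Col4a1 and Col4a2 encode the 2 chains of the most widespread form of type IV collagen and stand head to head on chromosome 8, with Col4a1 on the minus strand (chr8:11198423-11312826, mm10) and Col4a2 on the plus strand (chr8:11312805-11449287). Their annotated first exons share 22 bases. Their promoter windows are shown because the pair is known to be driven from a shared bidirectional promoter, and the Hspg2 window is shown beside them because its gene was the only other of the 10 with enough counts to be tested and differed from the pair in which library was highest. The windows come from RefSeq on GRCm38.p6 and run from 250 bases before to 50 bases after each start, 5′ to 3′ on the gene's strand. In the first and second sequences the capitals mark the 78 bases that lie in both windows, one the reverse complement of the other, and in the third they mark GC boxes (GGGCGG).
Col4a1 (chr8:11312777-11313076, minus strand): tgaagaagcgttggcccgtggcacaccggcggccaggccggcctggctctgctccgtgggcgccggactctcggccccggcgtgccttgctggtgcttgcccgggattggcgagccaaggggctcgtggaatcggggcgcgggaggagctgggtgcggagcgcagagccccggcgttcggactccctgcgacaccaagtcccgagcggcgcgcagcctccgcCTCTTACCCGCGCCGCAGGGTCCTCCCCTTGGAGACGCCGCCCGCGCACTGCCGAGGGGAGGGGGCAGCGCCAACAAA
Col4a2 (chr8:11312555-11312854, plus strand): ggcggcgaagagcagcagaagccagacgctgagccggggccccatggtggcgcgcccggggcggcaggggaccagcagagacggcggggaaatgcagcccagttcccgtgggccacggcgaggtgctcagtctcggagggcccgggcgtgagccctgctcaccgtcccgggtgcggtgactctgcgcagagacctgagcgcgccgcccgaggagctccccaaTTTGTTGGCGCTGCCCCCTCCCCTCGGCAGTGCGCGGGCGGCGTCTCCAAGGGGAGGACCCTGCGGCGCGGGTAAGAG
Hspg2 (chr4:137468553-137468852, plus strand): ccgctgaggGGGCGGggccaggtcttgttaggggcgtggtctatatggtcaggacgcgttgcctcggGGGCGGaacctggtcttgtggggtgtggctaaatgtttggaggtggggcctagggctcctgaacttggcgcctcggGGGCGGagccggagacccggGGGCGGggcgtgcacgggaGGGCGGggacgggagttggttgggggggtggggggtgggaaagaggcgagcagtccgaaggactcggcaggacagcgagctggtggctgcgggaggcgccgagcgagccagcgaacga

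A window was found for 6 of the 10 genes (Col4a1, Col4a2, Hspg2, Nid1, Eng and Flt1). They were searched on both strands for a TATA box, spelled TATAAA. The 3 printed windows hold none, and the Flt1 window holds one that begins 31 bases before the start. A TATA box stands in 13.6% of all 32851 promoter windows of that length. For the GC box, as spelled above and on both strands, the Hspg2 window holds 5 matches, the Col4a2 and Flt1 windows 3 each and the Col4a1 and Nid1 windows 1 each. It stands in 5 of the 6 windows, and 35.7% of all windows hold at least 1. The CCAAT box was searched by those 5 letters on both strands. It stands in 3 of the 6 windows (Col4a1, Col4a2 and Nid1) and in 37.4% of all windows. The G and C bases make up 74.0% of the Col4a1 window, 73.7% of the Col4a2 window and 70.3% of the Hspg2 window, against a median of 52.7% over all windows. These matches describe the letters and were not tested as sites.

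The question of the design is what vemurafenib changed in diabetic skin, asked here of vessels and their basement membrane. None of the 10 genes was called changed. Of the 5 basement membrane genes 3 were deeply enough counted to be tested (Col4a1, Col4a2 and Hspg2), and of the 5 endothelial genes 0 were. With edgeR's quasi-likelihood test 0 of these 3 had an adjusted p under 0.05, as did 0 of all 477 tested genes (0%). An unadjusted p under 0.05 was found for 23 of the 477 with edgeR. DESeq2 called 0 genes and limma-voom 0, where 14 and 41 had such an unadjusted p. The vehicle and vemurafenib libraries overlapped for each of the 10 genes. Of all tested genes 8.81% did not overlap, 4.61% with vemurafenib higher and 4.19% with vemurafenib lower, so 0 of 10 is near the background, and 7 of the 10 had too few counts to be among those tested.

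Col4a1 had 22, 8 and 50 counts in the vehicle libraries and 133, 7 and 18 in the vemurafenib libraries. As levels these are 900, 560 and 1082 CPM for vehicle and 1724, 329 and 480 CPM for vemurafenib. Vemurafenib 1 was the highest library of all and vemurafenib 2 and 3 were the lowest, so the treated group lay on both sides of the vehicle group. The group means were 847 ± 265 CPM for vehicle and 844 ± 766 CPM for vemurafenib (SD, n = 3). The log2 fold change was 0.04 ± 0.50 (SE, edgeR adjusted p = 0.995), and without vemurafenib 1 it was -1.06 ± 0.53 (edgeR adjusted p = 0.692).

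Col4a2 had the same highest library. Its levels were 491, 770 and 844 CPM in the vehicle libraries and 1543, 516 and 480 CPM in the vemurafenib libraries, from 12, 11, 39, 119, 11 and 18 counts. Again vemurafenib 1 stood above every other library, and vemurafenib 3 was the lowest. The mean was 702 ± 186 CPM for vehicle and 846 ± 603 CPM for vemurafenib. This gave a log2 fold change of 0.33 ± 0.48 (edgeR adjusted p = 0.995). Without vemurafenib 1 it was -0.50 ± 0.52 (edgeR adjusted p = 0.85).

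The pair was counted in nearly equal numbers. Over all libraries Col4a1 took 238 of the 448 counts of the pair, or 53.1% (exact 95% binomial interval 48.4% to 57.8%). By library this share was 64.7%, 42.1% and 56.2% in the vehicle libraries and 52.8%, 38.9% and 50% in the vemurafenib libraries. Each library's interval holds the share over all libraries, and the intervals cover counting error only. In vemurafenib 1, where the pair was highest, the interval was 46.4% to 59.1%, so no imbalance between the chains was detectable there at this depth. Per kb of exon the levels of the chains were also close, at 113 ± 68.7 CPM per kb for Col4a1 and 117 ± 61.5 CPM per kb for Col4a2 (SD over all 6 libraries).

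**Figure D1:**
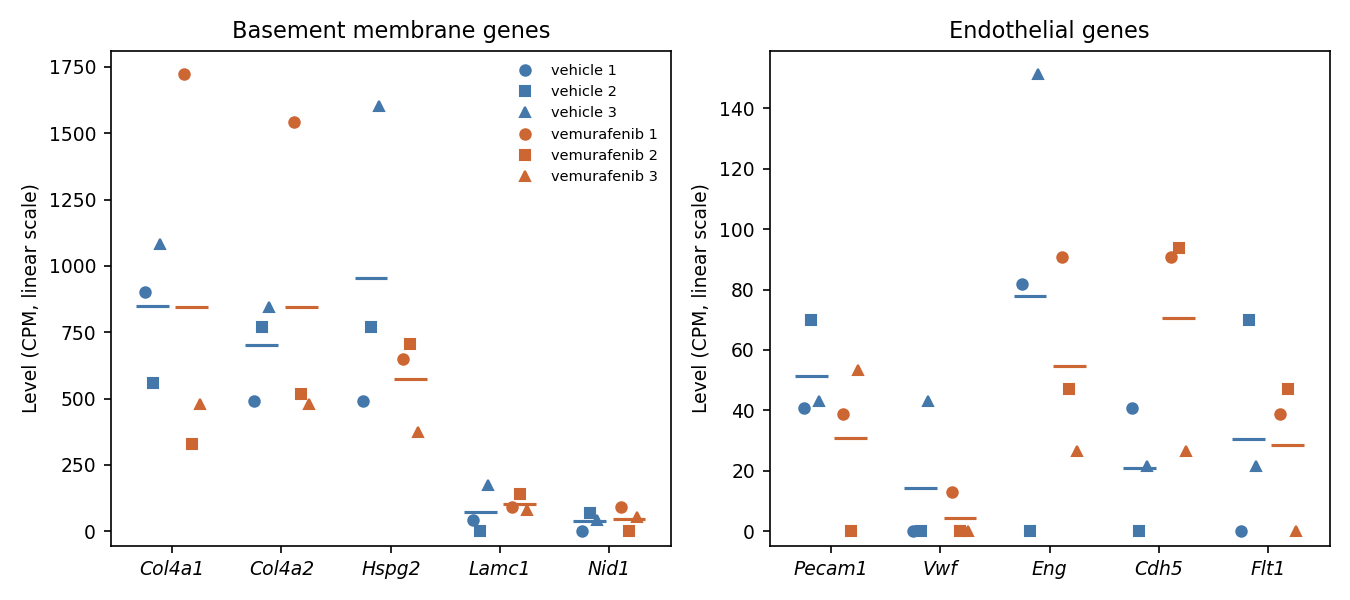
Level of each gene in CPM on a linear axis, basement membrane genes on the left and endothelial genes on the right. Each symbol is 1 library, the short lines are group means, blue is vehicle and orange is vemurafenib. Col4a1 and Col4a2 are highest in vemurafenib 1 (1724 and 1543 CPM) and Hspg2 is highest in vehicle 3 (1601 CPM), while the endothelial genes lie between 0 and 151 CPM.

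Hspg2 (chr4:137468769-137570630, plus strand) encodes perlecan, the proteoglycan of basement membranes that also holds growth factors. It had 12, 11 and 74 counts in the vehicle libraries and 50, 15 and 14 in the vemurafenib libraries. Its levels were 491, 770 and 1601 CPM for vehicle and 648, 704 and 373 CPM for vemurafenib. Vehicle 3 alone stood far above the rest, and the other vehicle libraries lay within or close to the range of the treated ones. The mean was 954 ± 577 CPM for vehicle and 575 ± 177 CPM for vemurafenib, and the log2 fold change was -0.79 ± 0.47 (edgeR adjusted p = 0.966). Without vehicle 3 it was -0.07 ± 0.49 (edgeR adjusted p = 0.997), and without vehicle 1 it was -1.13 ± 0.50 (edgeR adjusted p = 0.926).

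Perlecan and type IV collagen did not keep a fixed proportion across the libraries. Hspg2 made up 45.4% of the counts of Hspg2, Col4a1 and Col4a2 together in vehicle 3 (exact 95% interval 37.6% to 53.4%) and 16.6% in vemurafenib 1 (12.5% to 21.2%). These 2 deepest libraries therefore differed by more than counting error, as a comparison of those libraries and not of the treatments. In vehicle 1 and 2 the share was 26.1% and 36.7%, and in vemurafenib 2 and 3 it was 45.5% and 28.0%, so the groups overlapped.

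Lamc1 (chr1:153218922-153332786, minus strand) encodes the gamma chain found in most laminins of vessel basement membranes. It had 1, 0 and 8 counts in the vehicle libraries and 7, 3 and 3 in the vemurafenib libraries, or 71.3 ± 90.5 CPM and 104 ± 32.5 CPM. The vehicle libraries span the whole treated range. Nid1 (chr13:13437551-13512269, plus strand) encodes nidogen, which links laminin to type IV collagen. It had 0, 1 and 2 counts with vehicle and 7, 0 and 2 with vemurafenib, or 37.8 ± 35.3 CPM and 48.0 ± 45.6 CPM. With 22 and 12 counts in all, neither gene entered the test, and a difference was not detectable at this depth. With every gene of at least 1 count kept, edgeR gave log2 fold changes of 0.21 ± 0.87 for Lamc1 (adjusted p = 0.941) and 0.97 ± 1.13 for Nid1 (adjusted p = 0.722). That filter called 0.018% of 16695 genes and shifted the median log2 value of those 477 genes from 0.02 to 0.23, so its values sit about that much higher.

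Summed, the 5 basement membrane genes held 658 counts, 0.294% of all. Their summed level was 1923, 2170 and 3743 CPM in the vehicle libraries and 4097, 1690 and 1467 CPM in the vemurafenib libraries. One library of each group was high, and the other four lay between 1467 and 2170 CPM. The means were 2612 ± 987 CPM and 2418 ± 1459 CPM, a log2 ratio of -0.11. The ratio was -0.72 without vemurafenib 1 and 0.28 without vehicle 3. No test was made of this sum.

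**Figure D2:**
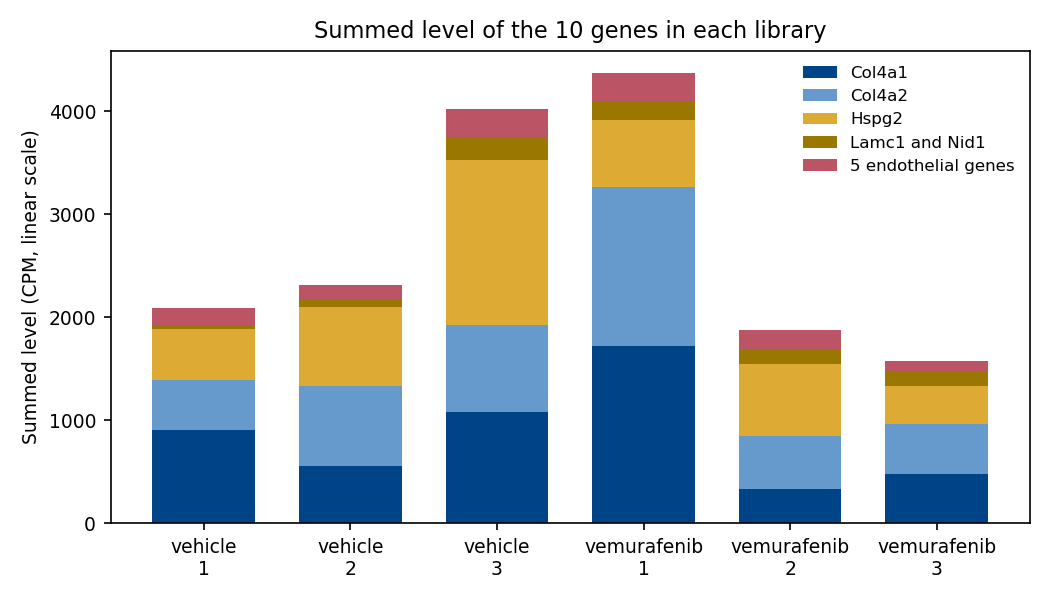
Stacked bars of the summed level of the 10 genes in CPM, 1 bar for each library. Vehicle 3 and vemurafenib 1 are the tall bars, with basement membrane sums of 3743 and 4097 CPM. In vehicle 3 the Hspg2 part is the tallest and in vemurafenib 1 the Col4a1 and Col4a2 parts are.

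Eng and Flt1 encode receptors of endothelium. Eng (chr2:32646595-32682669, plus strand) encodes endoglin, a co-receptor for ligands of the TGF-beta family on endothelium. It had 2, 0 and 7 counts in the vehicle libraries and 7, 1 and 1 in the vemurafenib libraries, or 77.8 ± 75.8 CPM and 54.8 ± 32.8 CPM. Flt1 (chr5:147561604-147726011, minus strand) encodes a receptor for vascular endothelial growth factor that can also act as a decoy. It had 0, 1 and 1 counts with vehicle and 3, 1 and 0 with vemurafenib. Eng was under 3 counts in 4 libraries and Flt1 in 5.

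The junction genes were as sparse. Cdh5 (chr8:104101625-104144511, plus strand) encodes VE-cadherin, the adhesion molecule of endothelial junctions. It had 1, 0 and 1 counts in the vehicle libraries and 7, 2 and 1 in the vemurafenib libraries, or 20.9 ± 20.5 CPM and 70.4 ± 37.9 CPM. Vemurafenib 3, at 26.7 CPM, lay below vehicle 1, at 40.9 CPM, so the groups overlapped. With every counted gene kept, the fitted log2 value was 1.68 ± 1.21 (edgeR adjusted p = 0.707). Pecam1 (chr11:106654217-106750628, minus strand) encodes CD31, the adhesion molecule most often stained to count vessels. It had 1, 1 and 2 counts with vehicle and 3, 0 and 2 with vemurafenib, or 51.4 ± 16.2 CPM and 30.7 ± 27.6 CPM. The 0 in vemurafenib 2 allows up to 144 CPM, above every measured level of Pecam1.

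Vwf (chr6:125546774-125686679, plus strand) encodes von Willebrand factor, which endothelial cells store and release to bind platelets. It had 3 counts in all, 2 in vehicle 3 and 1 in vemurafenib 1, which allows no comparison. For Pecam1, Eng, Flt1 and Vwf, edgeR with every counted gene kept gave log2 values of -0.15 ± 1.20, -0.40 ± 0.93, 0.46 ± 1.33 and -1.11 ± 1.60. Their adjusted p ran from 0.812 to 0.954. Each standard error was larger than its value.

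Summed, the 5 endothelial genes held 48 counts, with 4, 2 and 13 in the vehicle libraries and 21, 4 and 4 in the vemurafenib libraries. Their summed level was 195 ± 75.7 CPM for vehicle and 189 ± 82.8 CPM for vemurafenib, a log2 ratio of -0.05. Vehicle 3 and vemurafenib 1, at 281 and 272 CPM, were again the highest libraries. The ratio was 0.35 without vehicle 3 and -0.40 without vemurafenib 1, and no test was made of it. In whole skin, a change in the number of endothelial cells and a change in RNA per cell could not be told apart.

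Set against each other, the endothelial genes took 6.80% of the 706 counts of all 10 genes (exact 95% interval 5.06% to 8.91%). The share was 7.84%, 6.06% and 6.99% in the vehicle libraries and 6.23%, 10% and 6.78% in the vemurafenib libraries. The widest of these intervals ran from 2.79% to 23.7%, in vemurafenib 2, and each held the share over all libraries. A change in this share was not detectable at this depth.

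Per kb of exon, the order of the mean levels over all 6 libraries was Col4a2 (117 ± 61.5 CPM per kb), Col4a1 (113 ± 68.7 CPM per kb), Hspg2 (53.4 ± 30.4 CPM per kb), Eng (16.4 ± 13.3), Cdh5 (10.9 ± 9.16), Lamc1 (10.6 ± 7.66), Pecam1 (6.59 ± 3.72), Nid1 (6.18 ± 5.32), Flt1 (2.19 ± 2.05) and Vwf (0.583 ± 1.08), each ± the SD in CPM per kb. Neighbours in this order differed by less than the larger of their SDs, except Hspg2 and Eng. Hspg2 lay above Eng in every library, and Eng itself was at 0 in vehicle 2.

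**Figure D3:**
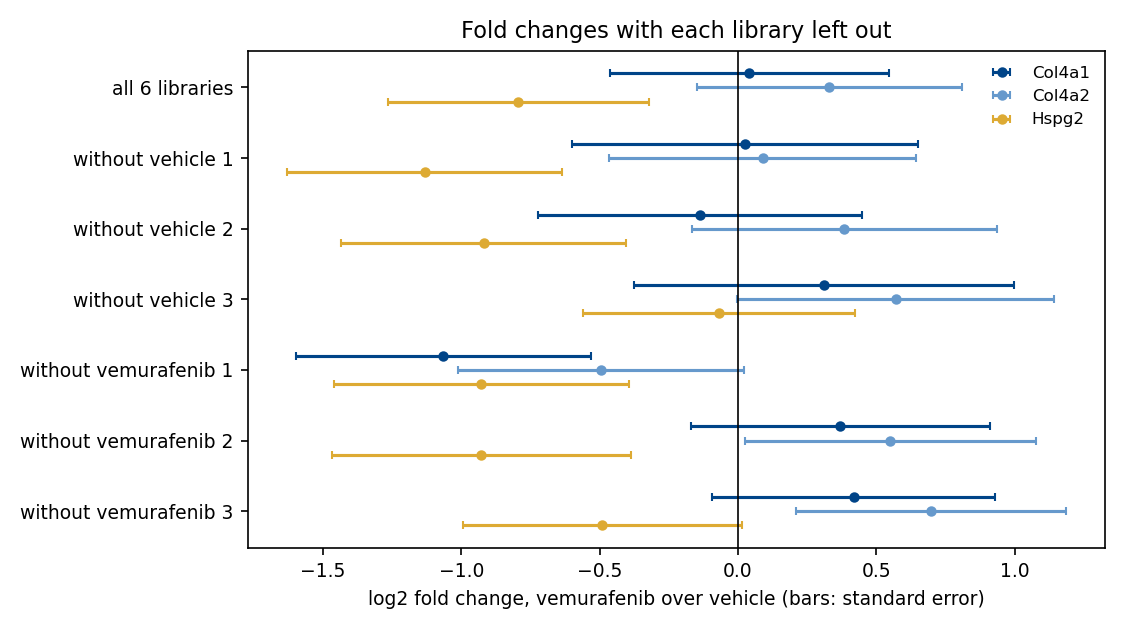
Log2 fold change of vemurafenib over vehicle on the horizontal axis for the 3 tested genes, with all 6 libraries and with each library left out. Points are edgeR estimates and bars their standard errors. Col4a1 moves from 0.04 to -1.06 and Col4a2 from 0.33 to -0.50 without vemurafenib 1, and Hspg2 moves from -0.79 to -0.07 without vehicle 3.

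The type IV collagen locus also carries counts under the name of an antisense gene, and the strand they come from was not tested. Gm15419 is an antisense gene on the minus strand inside Col4a2 (chr8:11399186-11417892), with 3 exons of 743 bp in all, of which 43 bp lie over Col4a2 exons. It held 89 counts, and per kb of exon it stood at 120 counts against 31.7 for Col4a2. Its levels were 614, 70.0 and 325 CPM in the vehicle libraries and 609, 235 and 160 CPM in the vemurafenib libraries. It was high in vemurafenib 1, as Col4a2 was, but also in vehicle 1, where Col4a2 was at its lowest with vehicle. Gm15419 took 29.8% of the counts of the 2 features over all libraries, 55.6% in vehicle 1 (exact 95% interval 35.3% to 74.5%) and 28.3% in vemurafenib 1 (21.6% to 35.8%). It did not enter the test.

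**Figure D4:**
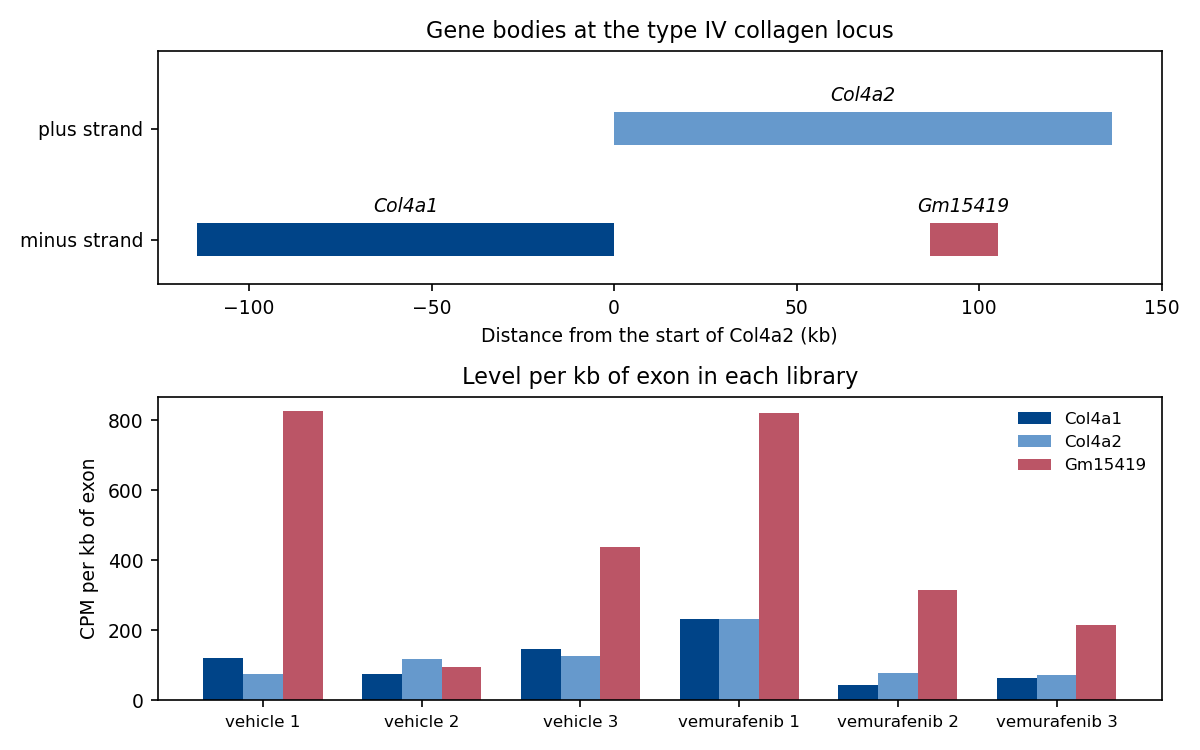
Above, the gene bodies of Col4a1, Col4a2 and Gm15419 by strand, with distance from the start of Col4a2 in kb. Below, bars of their level in CPM per kb of exon in each library, where Gm15419 stands at 826 in vehicle 1 and 820 in vemurafenib 1 and at 94.2 in vehicle 2.

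Other features at the loci were thinly counted. Eng overlaps Fpgs, a folate metabolism gene on the opposite strand, by 61 bp of exon, and Fpgs held 10 counts against 18 under Eng. Nid1 has 143 bp of exon opposite Gm48682, an antisense gene with no row of that symbol in the table. The pseudogene Gm8818, on the plus strand in an intron of Lamc1, held 12 counts, or 11.5 per kb against 2.66 for Lamc1, and reads that also match its parent gene cannot be told apart. Gm15418 and Gm29682, antisense genes at Col4a1 and Cdh5 without exon overlap, had 1 count each. Counts of Eng, Nid1, Col4a2 at Gm15419 and the first bases of the type IV collagen pair are therefore uncertain where exons overlap.

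The other 29 basement membrane genes were described in the same way. A count was found for 27, and their summed level was 5449 ± 1929 CPM for vehicle and 3942 ± 1124 CPM for vemurafenib, with overlapping groups. Of these 3 were tested and 0 passed, with 1 above and 2 below 0 and a median log2 fold change of -0.17, against 0.02 over all 477 tested genes. Col7a1, the collagen of the anchoring fibrils under the epidermis, had 2251, 2520 and 3483 CPM in the vehicle libraries and 1582, 2019 and 960 CPM in the vemurafenib libraries. Its 3 treated libraries all lay below the vehicle ones, as did those of 4.19% of all tested genes, and its log2 fold change was -0.88 ± 0.43 (edgeR adjusted p = 0.946). Sparc, a matrix protein that binds type IV collagen, had -0.17 ± 0.49, and Col17a1, the hemidesmosome collagen of the epidermis, had 0.07 ± 0.53. In vemurafenib 1, where type IV collagen was highest, Col7a1 was at its second lowest level of the 6 libraries.

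Of the other 33 endothelial genes 24 had a count, 162 counts in all, and 0 were tested. Icam2, Ramp2, Erg, Esm1, S1pr1, Thbd, Sele, Selp and Ackr1 were at 0 in every library, so these 9 endothelial genes were not seen at this depth. The summed level was 687 ± 171 CPM for vehicle and 641 ± 266 CPM for vemurafenib, from 491 to 801 and from 376 to 908 CPM. The highest library was vemurafenib 1 at 908 CPM, and vehicle 3 followed at 801 CPM. Of these levels Nos3 alone gave 207 CPM in vemurafenib 1 and 108 CPM in vehicle 3. Nos3, the nitric oxide synthase of endothelium, held 50 of the counts, but has 1040 bp of exon opposite another gene, Atg9b or Gm15587, and its counts are uncertain. Plvap, a protein of endothelial fenestrae, had 20 counts. Of 6 lymphatic endothelial genes 2 had a count, 4 counts in all, and the lymphatic regulator Prox1 was at 0.

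Ligands and receptors of the vascular endothelial growth factor, angiopoietin and Notch systems were a list of 21 genes, of which 15 had a count and 0 were tested. Their summed level was 859, 700 and 995 CPM in the vehicle libraries and 1115, 1127 and 1093 CPM in the vemurafenib libraries. The treated libraries all lay above the vehicle ones under each of 4 scalings, which act on the same counts. Among the 13 lists other than the 10 genes this was the 1 list whose sums did not overlap with TMM scaling. Of single tested genes 4.61% lay with vemurafenib higher and 8.81% did not overlap in either direction. The 1 list of 13 is near these shares, but they are of single genes and not of sums. No background of sums over lists was computed, so the separation is not read as a result. The nearest libraries were vehicle 3 at 995 CPM and vemurafenib 3 at 1093 CPM, from 46 and 41 counts. The sums rest on 21, 10 and 46 counts with vehicle and 86, 24 and 41 with vemurafenib, and no test was made of them. Its leading genes showed no shared pattern. Notch1, a Notch receptor with 1068 bp of exon opposite another gene, had 246, 0 and 281 CPM for vehicle and 156, 423 and 267 CPM for vemurafenib. Angpt2, a ligand that loosens vessels, had 123, 210 and 130 CPM and 156, 93.9 and 80.0 CPM. Vegfa, the main growth factor for vessels, had 347 CPM in vemurafenib 3 and at most 130 CPM elsewhere.

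Collagen receptors and the enzymes that modify collagen (21 genes, 302 counts, 0 tested) had 1330 ± 307 CPM for vehicle and 1393 ± 536 CPM for vemurafenib. Itgb1, the integrin subunit shared by many matrix receptors, held 58 of these counts, and Serpinh1, the chaperone of collagen folding, held 30. Serpinh1 had 123, 70.0 and 173 CPM in the vehicle libraries and 169, 188 and 26.7 CPM in the vemurafenib libraries.

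Markers of other cells that make or lie on basement membrane are given for the libraries that were high. Of the 14 fibroblast genes all had a count, and their summed level ran from 35725 to 81025 CPM for vehicle and from 22159 to 47090 CPM for vemurafenib. Vehicle 3, where Hspg2 was highest, was also the highest library for this sum at 81025 CPM, and vemurafenib 1 had 39818 CPM. Of the 10264 counts of the sum, the collagen genes Col1a1, Col3a1 and Col1a2 held 2950, 2790 and 1457. It therefore follows these genes most and does not measure the number of fibroblasts. Of these 14 genes 11 were tested and 0 passed, with 0 above and 11 below 0, where 230 of all 477 tested genes lay below 0. The median log2 fold change of the 11 was -0.74, against 0.02 over all 477 tested genes. Vehicle 3 was the highest vehicle library for each of the 11, which are therefore not taken as separate observations. Col4a1 and Col4a2 took 21.0% of their counts summed with the fibrillar collagen gene Col1a1 in vemurafenib 1 (exact 95% interval 18.8% to 23.5%), against 5.70% to 13.8% in the other 5 libraries. Of the 14 mural cell genes 11 had a count, at 409 to 1147 CPM for vehicle and 516 to 830 CPM for vemurafenib, with vehicle 3 the highest. Of the pericyte markers among them Kcnj8, Abcc9 and Higd1b were at 0, whereas Rgs5 and Cspg4 were counted. Pdgfrb had 19 counts and Notch3, which has 488 bp of exon opposite another gene, had 39. Of these 14, Mylk held 63 counts but has 548 bp of exon opposite another gene. All 12 keratinocyte genes had a count, Krt14 among them with 166, so defining markers of epidermis were present, at 3397 to 5110 CPM for vehicle and 4603 to 5813 CPM for vemurafenib. The 10 skeletal muscle genes, 7 with a count and Acta1 at 0, had 260 to 630 and 188 to 293 CPM. The 10 adipocyte genes, 8 with a count and Adipoq at 0, had 325 to 770 and 519 to 1493 CPM. The 10 macrophage genes, 9 with a count and Adgre1 at 0, had 671 to 737 and 533 to 985 CPM, with vemurafenib 1 the highest. The 8 nerve sheath genes had 140 to 327 and 80.0 to 235 CPM, and the 5 platelet genes, with Pf4 at 0, had 140 to 286 and 107 to 141 CPM. The part of these cells, or of depth, in the values of the 10 genes was not tested.

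The tested genes outside the lists whose pattern over the 6 libraries lay nearest to the summed basement membrane level were Gpr162, Chd3, a chromatin remodelling ATPase gene, and Prr33. Their root mean square distances of centred log2 CPM were 0.135, 0.291 and 0.304, where the median over all tested genes was 0.741. For the endothelial sum the nearest were Ncor1, a nuclear receptor corepressor gene, Rrbp1, a ribosome-binding protein gene of the endoplasmic reticulum, and Ccdc167, at 0.108, 0.149 and 0.205 against a median of 0.664. Rrbp1 had 1839 CPM in vehicle 3 and 1582 CPM in vemurafenib 1 and 700 to 1221 CPM elsewhere. Ncor1 and Ccdc167 have exons of other genes on their opposite strand. These distances describe 6 libraries and were not tested.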

How the data were processed

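Poly(A) RNA of skin was sequenced as stranded single-end KAPA libraries, per the labels' protocols. The values the authors deposited are read counts for each gene symbol, whole numbers with no normalization. HISAT2, HTSeq and mm10 are named in the submitters' processing notes, with versions, annotation and strand setting not given in the sources used here. A further column (1) matches no sample and was left out.

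Counts were tested as deposited with edgeR 4.0.16 (R 4.3.3): filterByExpr (smallest count 10, smallest total 15), TMM on library totals, the robust quasi-likelihood test with group as the only term, and Benjamini-Hochberg adjusted p under 0.05 over all 477 genes. Standard errors were taken as the absolute log2 fold change divided by the root of F. The test was checked on simulated counts. DESeq2 1.42.0, limma-voom (limma 3.58.1), other scalings and filters, the replicate number as a block and leaving out each library were alternatives. Binomial intervals are exact (Clopper-Pearson) at 95%, and they and the floors (3 counts over a library's total) cover counting error only. Positions, merged exons and overlaps come from GENCODE M21, promoter windows from RefSeq GRCm38.p6.

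The 10 genes and all lists were chosen with earlier results of these data known. Named besides were up to 3 genes with most counts in each list, those whose exons lie opposite one of the 10 over 50 bp or more, and 3 genes of nearest pattern for each sum, after adding 10 CPM. Other genes were named after their values were seen.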

Additional observations from a re-analysis of the deposited data

How the results depend on the processing

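The count of 0 changed genes was kept under DESeq2 size factors, upper quartile scaling, library totals, DESeq2, limma-voom, the replicate block and when the 20 most abundant genes were left out. It became 3 with every gene of at least 1 count and 3 with at least 10 counts in total, and ran from 0 to 2 when 1 library was left out, with 2 without vemurafenib 1. The log2 fold change of Col4a1 turned negative with limma-voom (-0.33), with the replicate block (-0.26), without vehicle 2 (-0.14) and without vemurafenib 1 (-1.06), and that of Col4a2 without vemurafenib 1 (-0.50). The highest values without 1 library were 0.42 and 0.70. Hspg2 stayed below 0 in all 15 alternatives, from -1.13 to -0.07. None of these 3 genes was called under any of the 15 alternatives. The log2 ratio of the basement membrane sum ran from -0.72 to 0.28 and that of the endothelial sum from -0.40 to 0.35 when 1 library was left out, so neither had a settled sign. The cause of these shifts was not tested beyond leaving out the libraries named.

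Libraries that share a number did not vary together: the correlations of their deviations from the group means over 477 genes were 0.04, -0.08 and -0.31 for numbers 1, 2 and 3. Between libraries of unlike number they ran from -0.23 to 0.29. The labels do not say whether the number is a pairing of samples. With 3 libraries in each group these correlations cannot decide it. With the number as a replicate block the log2 ratios were -0.08 for the endothelial and -0.21 for the basement membrane sum. Low counts limit 7 of the 10 genes, which had 3 to 22 counts each, and the cause of the low counts was not tested.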
